A study of Homo sapiens with 6 samples.

Results

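MYO6, PLPP1, KDM6A, ZBTB16, RASSF3 and ST3GAL1 are 6 human genes over which RNA polymerase II peaks formed long runs after treatment with the small molecule BMH-21. They were selected on these runs, that is, on the BMH-21 Pol II peaks listed there, so the runs are described here and not tested. The windows are those of the genes on hg19, given to the nearest 1 kb, with 20 kb added on both sides. They took in 1161 kb and 400 of the 11540 peaks listed for Pol II after BMH-21, 6 of 28798 for Pol II in DMSO, 58 of 42547 for Pol I in DMSO and 1 of 1932 for Pol I after BMH-21.

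The peaks come from chromatin immunoprecipitation with sequencing in LNCaP, an androgen-responsive human prostate cancer line. Cells received the solvent DMSO or 1 µM BMH-21 for 6 h. The antibodies recognised RNA polymerase I (Pol I) or the form of RNA polymerase II (Pol II) that carries a phosphate on serine 5 of the repeats in its tail. There was 1 library per antibody and treatment, so that values are set side by side with no test between treatments, and read depth is unknown because the lists hold peaks and no reads.

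Pol I makes the large ribosomal RNA precursor in the nucleolus, and Pol II makes messenger RNA. Pol II is phosphorylated on serine 5 as it starts on a gene, so this form is usually densest near gene starts and thins out along the gene body. BMH-21 intercalates into DNA, with a preference for sequence rich in G and C, and inhibits Pol I. A change in phosphorylation cannot be told apart here from a change in where Pol II sits.

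The lists have 2 properties that bear on each value below. They hold no peak with a score under 50, the score being a value that the authors gave to each peak on a scale that is not stated. Each peak also carries a running number along the chromosome, and many numbers are skipped: 38704 (77.0%) in the BMH-21 Pol II list, 26641 (48.1%) in the DMSO Pol II list, 13823 (87.7%) in the BMH-21 Pol I list and 12923 (23.3%) in the DMSO Pol I list. Nothing is given of the skipped peaks, so a stretch without listed peaks is not shown to lack the polymerase, and skipped numbers are given beside the edges of each run. Over the whole genome, 0 DMSO Pol II peaks met a listed peak of Pol II after BMH-21. The 0 overlaps in these windows are therefore not particular to them. Where BMH-21 Pol II peaks lie close together, as in the runs, DMSO Pol II peaks were thus listed, if at all, only in the gaps.

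RefSeq promoter sequences could be matched by symbol for 3 of the 6 genes. They are shown because listed peaks lay at these starts: BMH-21 Pol II and DMSO Pol I peaks at MYO6 and KDM6A, and DMSO Pol I peaks alone at RASSF3. Each line holds the 250 bases before the start on the plus strand, 5′ to 3′, from GRCh38 (chr6:75748989-75749238, chrX:44872938-44873187 and chr12:64610245-64610494). Capitals mark the letters GGGCGG, the GC box bound by Sp1-type factors, or its reverse complement CCGCCC. No position was converted between builds, and whether these starts are those of the hg19 windows was not checked.
MYO6: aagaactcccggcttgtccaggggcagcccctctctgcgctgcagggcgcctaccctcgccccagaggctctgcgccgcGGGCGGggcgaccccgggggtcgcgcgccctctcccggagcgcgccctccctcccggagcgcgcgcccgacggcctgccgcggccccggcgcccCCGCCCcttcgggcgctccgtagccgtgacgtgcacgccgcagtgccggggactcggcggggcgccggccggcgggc
KDM6A: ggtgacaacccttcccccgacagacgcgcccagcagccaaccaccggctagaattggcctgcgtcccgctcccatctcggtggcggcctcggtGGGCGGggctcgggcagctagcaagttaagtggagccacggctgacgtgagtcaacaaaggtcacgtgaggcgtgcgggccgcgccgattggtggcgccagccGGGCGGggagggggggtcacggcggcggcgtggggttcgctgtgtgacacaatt
RASSF3: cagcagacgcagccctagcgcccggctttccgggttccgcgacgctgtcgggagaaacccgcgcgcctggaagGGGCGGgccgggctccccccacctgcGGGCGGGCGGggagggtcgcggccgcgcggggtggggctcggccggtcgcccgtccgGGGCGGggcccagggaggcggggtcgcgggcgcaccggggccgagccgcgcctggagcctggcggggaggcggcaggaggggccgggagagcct

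All 3 promoters held the GC box, with 2 matches at MYO6 (1 per strand), 2 at KDM6A and 4 at RASSF3, of which a pair overlaps. Of 35116 promoters in the table, 42.6% held it on either strand in the same 250 bases. TATAAA, searched on both strands, was absent from the 3 windows and present in 10.7% of all promoters. CpG dinucleotides numbered 41 at MYO6, 27 at KDM6A and 38 at RASSF3, against a median of 11. GC content was 82% at MYO6, 69.2% at KDM6A and 82.4% at RASSF3. These matches describe letters and not bound sites.

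Across the 6 windows, BMH-21 Pol II peaks lay on 496 kb, or 42.7% of the length. DMSO Pol I peaks lay on 2.94%, DMSO Pol II peaks on 0.307% and BMH-21 Pol I peaks on 0.0171%. The BMH-21 Pol II share ran from 32.1% for KDM6A to 68.0% for PLPP1, and in each window it was the highest of the 4 lists. The genes were chosen on these peaks, so that rank was set in advance.

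By gene, BMH-21 Pol II peaks covered 39.6% of the MYO6 window, 68.0% of PLPP1, 32.1% of KDM6A, 34.3% of ZBTB16, 53.4% of RASSF3 and 45.3% of ST3GAL1. DMSO Pol I peaks covered 3.88% of MYO6, 1.88% of PLPP1, 1.30% of KDM6A, 2.99% of ZBTB16, 6.61% of RASSF3 and 2.55% of ST3GAL1. DMSO Pol II peaks covered 0.691% of MYO6, 0.133% of KDM6A, 1.02% of RASSF3, 0.266% of ST3GAL1 and 0% of PLPP1 and ZBTB16. BMH-21 Pol I peaks covered 0.0858% of ZBTB16 and 0% of the others. RASSF3 thus had the highest DMSO Pol I share and the second highest for Pol II after BMH-21. PLPP1, with the highest share for Pol II after BMH-21 (68.0%), had 1.88% for DMSO Pol I, under all but KDM6A. The order for DMSO Pol II changed with the flank. With 0 kb on each side MYO6 was highest at 0.852% and RASSF3 was at 0%, and with 50 kb MYO6 was at 2.64%, ZBTB16 at 2.37% and RASSF3 at 1.12%. As background, 0.0499% of 100 kb tiles of the genome (15 of 30075) were at least 50% covered in the BMH-21 Pol II list, and 5 of those 15 touched the 6 windows. No tile reached 50% in the DMSO Pol II list (0% of tiles), the DMSO Pol I list (0%) or the BMH-21 Pol I list (0%). Since the genes were chosen for these runs, nothing is read from that excess.

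**Figure D1:**
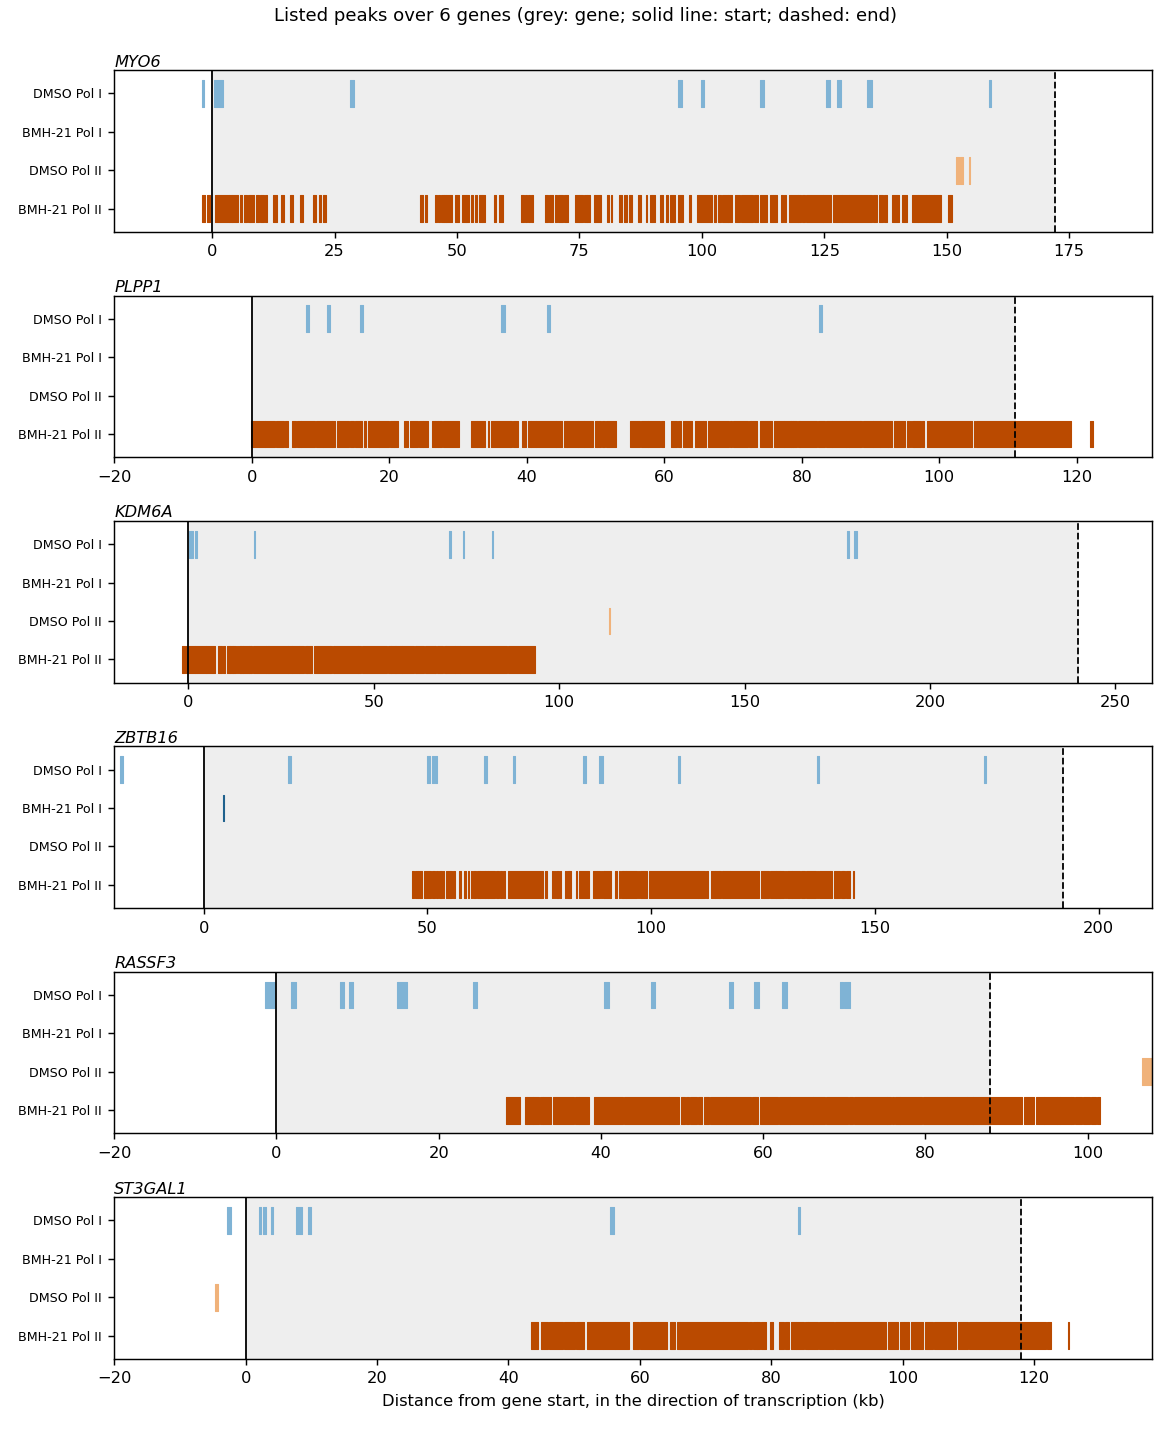
Listed peaks of the 4 libraries over the 6 genes, by distance in kb from the gene start in the direction of transcription, with the gene in grey between its start (solid line) and end (dashed line). BMH-21 Pol II peaks form the runs, beginning at the start of PLPP1 and KDM6A and 28 to 47 kb into ZBTB16, RASSF3 and ST3GAL1, while DMSO Pol I peaks are scattered and the other lists hold 0 to 3 peaks per gene.

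A run is a set of listed peaks joined over gaps of up to 10 kb. The main run of each gene had 47 to 86 peaks over 73.3 to 122 kb, and 0 skipped numbers inside. Together these 6 runs spanned 580 kb with 83.0% of it under peaks. Their placement on the gene differed from member to member, as described next.

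PLPP1 encodes a membrane phosphatase that removes phosphate from phosphatidic acid and lysophosphatidic acid, and it is known as an androgen-regulated gene of LNCaP cells. Its window, chr5:54720000-54831000 on the minus strand with its flanks, held 86 BMH-21 Pol II peaks, 0 DMSO Pol II peaks, 6 DMSO Pol I peaks and 0 BMH-21 Pol I peaks. It was the member with the largest covered length, 103 kb. The run (chr5:54708698-54831090) covered the whole gene, from its start to 11 kb past its end, and 83.9% of it was under peaks. The peak over the start, chr5:54829125-54831090, had a score of 1091.51.

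The highest-scored and widest PLPP1 peak lay at the other end of the gene. It ran over 13898 bp at chr5:54711805-54725702 with a score of 3100, and it crossed the gene end. Few numbers were skipped around this run, with 1 number in the 36.9 kb before it in the direction of transcription and 0 in the 20.2 kb after it. In RefSeq on GRCh38, PLPP1 overlaps its neighbour MTREX, the gene of an RNA helicase of the nuclear exosome, and ChIP peaks have no strand, so these peaks cannot be assigned to a gene by themselves. The nearest listed DMSO Pol II peaks were 103 kb from the start side of the run and 201 kb from its far side, with 6 DMSO numbers skipped over the 427 kb between them.

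ST3GAL1 encodes a Golgi sialyltransferase that caps O-linked sugar chains with sialic acid. Its window, chr8:134467000-134585000 on the minus strand with its flanks, held 49 BMH-21 Pol II peaks, 1 DMSO Pol II peak, 8 DMSO Pol I peaks and 0 BMH-21 Pol I peaks. The run (chr8:134459640-134541517) began 43 kb into the gene and ended 7 kb past its end, with 87.4% under peaks. The part of the gene nearest the start was empty in the BMH-21 Pol II list: 0% of its first of 3 equal parts was covered, against 80.6% of the middle and 89.5% of the last.

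As at PLPP1, the highest-scored ST3GAL1 peak crossed the gene end. It lay at chr8:134463223-134468715 and had a score of 3100. Before the run, 39 numbers were skipped in the 2060 kb to the next listed BMH-21 Pol II peak, and after it 2 were skipped in 151 kb. The DMSO Pol II peak of this window was outside the gene, at chr8:134589188-134589608, with a score of 57.55.

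MYO6 encodes myosin VI, a motor that moves towards the minus end of actin filaments and works in endocytosis. It is also known for raised levels in prostate cancer. Its window, chr6:76458000-76630000 on the plus strand with its flanks, held 98 BMH-21 Pol II peaks, 3 DMSO Pol II peaks, 10 DMSO Pol I peaks and 0 BMH-21 Pol I peaks. This was the member with the most BMH-21 Pol II peaks and the least closed run.

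The MYO6 peaks fell into 2 runs. The early run (chr6:76455841-76481155) had 19 peaks, reached from 2 kb before the start to 23 kb into the gene and was 59.1% covered. The main run (chr6:76500529-76609101) had 79 peaks, reached from 43 to 151 kb and was 63.6% covered. In the 19.4 kb between them 6 numbers were skipped, so the gap in the list may hold peaks that are not listed. The highest-scored MYO6 peak, 1329.97 at chr6:76579316-76582675, lay inside the gene, 123 kb from the start.

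The 3 DMSO Pol II peaks of MYO6 stood just past the last BMH-21 Pol II peak. The first of them began 810 bp beyond it, and they were placed at chr6:76609912-76610498, chr6:76610706-76611218 and chr6:76612471-76612835 with scores of 81.41, 88.18 and 58.3. After the run, 25 BMH-21 Pol II numbers were skipped over 967 kb. The run therefore ends, as listed, 21 kb before the gene end.

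KDM6A encodes UTX, an X-linked demethylase that removes the repressive methyl marks of histone H3 lysine 27. Its window, chrX:44732000-44972000 on the plus strand with its flanks, held 48 BMH-21 Pol II peaks, 1 DMSO Pol II peak, 9 DMSO Pol I peaks and 0 BMH-21 Pol I peaks. The run (chrX:44730330-44825485) began 2 kb before the start and ended 93 kb into the gene. With 94.4% under peaks and no gap over 593 bp, it was the most closed of the 6.

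The KDM6A run ended on its strongest peak, chrX:44818177-44825485, which had a score of 3120.65, and 147 kb of gene lay beyond it with 0 listed BMH-21 Pol II peaks. That edge is not a measured end of Pol II. In the 338 kb to the next listed BMH-21 Pol II peak, 87 numbers were skipped, or 25.7 per 100 kb, against an average of 1.29 per 100 kb over the whole list. The single DMSO Pol II peak of KDM6A, chrX:44845408-44845779 with a score of 65.38, came 19.9 kb after the run, and 11 DMSO Pol II numbers were skipped in the 334 kb after it.

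ZBTB16 encodes PLZF, a zinc finger transcription factor induced by androgen in prostate cells. Its window, chr11:113930000-114122000 on the plus strand with its flanks, held 72 BMH-21 Pol II peaks, 0 DMSO Pol II peaks, 12 DMSO Pol I peaks and 1 BMH-21 Pol I peak. The run (chr11:113976609-114075342) lay wholly within the gene, from 47 to 145 kb after the start, and was 80.6% covered. Its highest-scored peak ran over 10952 bp at chr11:114029495-114040446 with a score of 3100.

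Both edges of the ZBTB16 run had skipped numbers beside them. In the 730 kb before it 57 BMH-21 Pol II numbers were skipped, or 7.81 per 100 kb, and in the 206 kb after it 77 were skipped, or 37.5 per 100 kb. The DMSO Pol II list skipped 13 numbers over the 395 kb around this run. The BMH-21 Pol I peak of ZBTB16, the single one in the 6 windows, was at chr11:113934419-113934617, 4.52 kb after the gene start, with a score of 55.62. As background, 95.3% of 100 kb tiles held 0 BMH-21 Pol I peaks.

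RASSF3 encodes a member of the Ras association domain family, small adaptor proteins linked to growth control. Its window, chr12:65004000-65092000 on the plus strand with its flanks, held 47 BMH-21 Pol II peaks, 1 DMSO Pol II peak, 13 DMSO Pol I peaks and 0 BMH-21 Pol I peaks. The run (chr12:65032277-65105537) began 28 kb after the start of this gene model and ended 14 kb past the gene end, with 93.3% under peaks. RefSeq on GRCh38 holds a longer model of RASSF3 than this window, so distances from the start and the parts of the gene refer to the window alone. It was the shortest of the 6 runs.

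The highest-scored and widest RASSF3 peak crossed the gene end, at chr12:65089905-65095921, with a score of 3100. In the 22.6 kb after the run 2 numbers were skipped, and in the 134 kb before it 18 were skipped, or 13.5 per 100 kb. The DMSO Pol II peak of this window (chr12:65110689-65112792) had a score of 351.86, the highest of the 6 DMSO Pol II peaks, and began 5.15 kb after the run, beyond the gene end.

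Set side by side, the runs as listed took 2 forms at their far edge. Those of PLPP1, RASSF3 and ST3GAL1 passed the gene end by 7 to 14 kb. In each of these 3 the peak with the highest score crossed the gene end, with its centre 1 kb past it. PLPP1 overlaps its neighbour MTREX, and the RASSF3 end is that of its window. The genes were chosen on these peaks and no such count was made for other runs. No pattern at gene ends is therefore read from this. After these 3 runs 0 (PLPP1) or 2 numbers (RASSF3 and ST3GAL1) were skipped before the next listed peak, at rates of 0, 8.84 and 1.32 per 100 kb. Those of MYO6, KDM6A and ZBTB16 stopped, as listed, 21, 147 and 47 kb before the gene end, and 25, 87 and 77 numbers were skipped after them. Per 100 kb that was 2.59 for MYO6, under the rate after RASSF3, against 25.7 for KDM6A and 37.5 for ZBTB16. Numbers were skipped after every run but that of PLPP1, so the far edges of the others, RASSF3 and ST3GAL1 included, are not fixed by these lists. The PLPP1 edge is that of listed peaks, which have no strand, and not a measured end of Pol II on this gene. As background, 50% of the 54 BMH-21 Pol II runs of at least 10 peaks skipped no number inside.

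**Figure D2:**
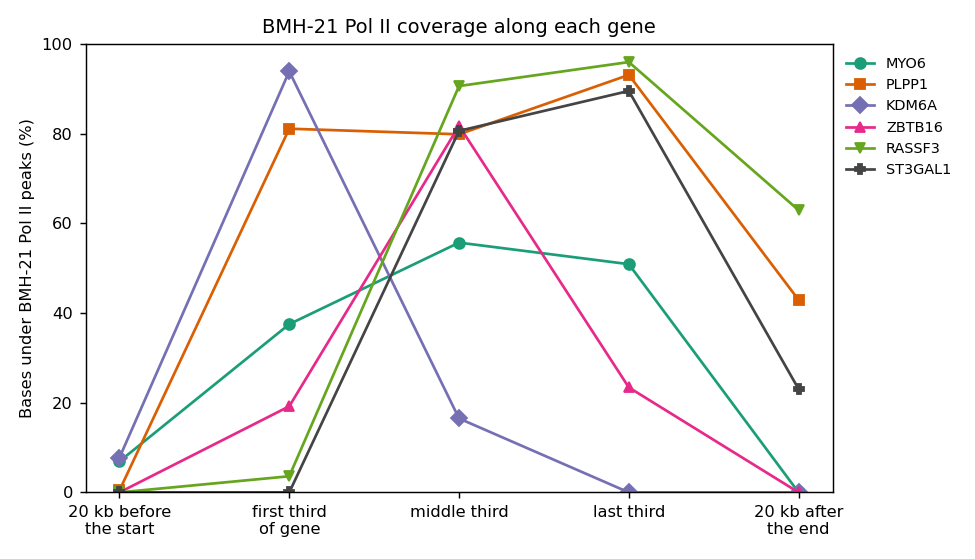
Share of bases under BMH-21 Pol II peaks in the 20 kb before the gene start, in 3 equal parts of the gene and in the 20 kb after its end, 1 line per gene. KDM6A is highest in its first part (93.9%) and at 0% in its last, RASSF3 and ST3GAL1 are highest in their last part (95.97% and 89.5%), and past the end PLPP1, RASSF3 and ST3GAL1 keep 42.9%, 62.9% and 23.0%.

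At the near edge the members also differed. BMH-21 Pol II peaks were listed at the starts of MYO6, PLPP1 and KDM6A. No such peak was listed within 28 kb after the start of RASSF3, 43 kb of ST3GAL1 or 46 kb of ZBTB16. Before these runs 13.5, 1.89 and 7.81 numbers per 100 kb were skipped, in the same order, against 1.29 over the whole list. Peaks near these starts may therefore be unlisted. In the 20 kb before the start the covered share was 7.75% for KDM6A, 6.92% for MYO6, 0.45% for PLPP1 and 0% for the others. Of the gene bodies 36.8% (KDM6A) to 84.7% (PLPP1) was covered, but the genes were chosen for runs over them, so nothing is read from this contrast.

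Within the runs, cover grew along the direction of transcription in 5 of the 6 genes when each run was cut into 3 equal parts. The covered shares of the first, middle and last part were 50.7%, 60.1% and 79.96% for MYO6. They were 80.3%, 82.96% and 88.4% for PLPP1, 91.9%, 94.5% and 96.8% for KDM6A, and 74.3%, 79.1% and 88.4% for ZBTB16. In RASSF3 the middle and last parts were nearly level, at 89.1%, 95.3% and 95.6%. ST3GAL1 went the other way, with 89.8%, 87.6% and 84.7%. With 1 library behind these shares, no replicate error can be set against the order. The genes were chosen for these runs, the far edges are not measured ends of Pol II, and no such count is given for other runs. With the gene cut into 3 equal parts instead, KDM6A had 93.9%, 16.5% and 0%, and ZBTB16 19.2%, 81.8% and 23.4%. MYO6 had 37.5%, 55.7% and 50.9%, and PLPP1 81.1%, 79.9% and 93.1%. Only RASSF3 and ST3GAL1 rose throughout, so a rise along the gene is not general here.

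Peaks of the windows were wide for their list. Their median width was 767.5 bp against 269 bp in the whole BMH-21 Pol II list, and their median score 173.6 against 60.44. Of the 400 peaks, 154 (38.5%) were at least 1 kb wide, against 4.79% of the whole list. Of the 15 peaks at a score of 3100 or more in the whole list, 5 lay in these windows, 1 each for PLPP1, KDM6A, ZBTB16, RASSF3 and ST3GAL1. Except at KDM6A the score of these was exactly 3100, a value shared by the top peaks of several other runs. The score therefore does not rank such peaks against each other. MYO6 had none, and its median peak score, 112.8, was the lowest of the 6, whereas ST3GAL1 had the highest, 362.4. Width and score were part of what made these runs stand out, so they are given as a description.

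**Figure D3:**
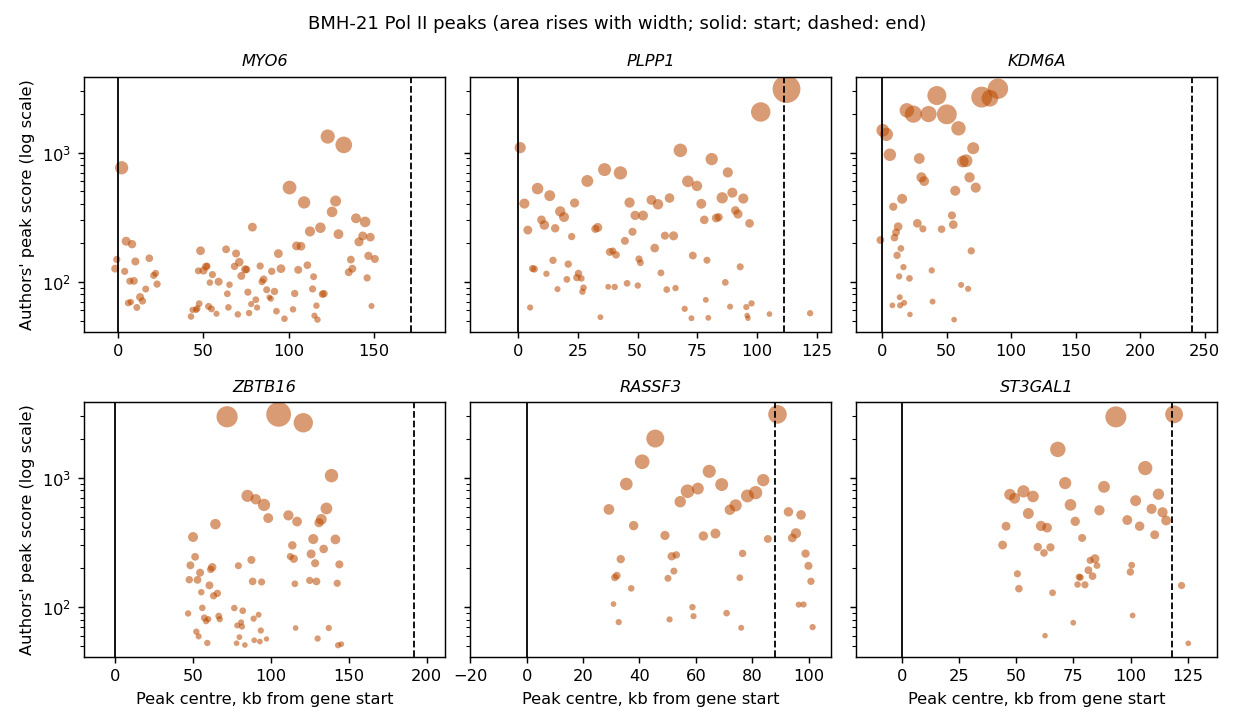
Authors' score of each BMH-21 Pol II peak (log axis) against the distance of its centre from the gene start in kb, with point area rising with peak width, a solid line at the start and a dashed line at the gene end. The point with the highest score sits on the dashed line in PLPP1, RASSF3 and ST3GAL1 and inside the gene in MYO6 (1329.97), KDM6A (3120.65) and ZBTB16 (3100).

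The genes were selected on BMH-21 Pol II peaks. Earlier results of these data were known, so the choice is not shown to be independent of DMSO Pol I peaks. Each of the 6 windows had them, from 6 for PLPP1 to 13 for RASSF3. Their rates were 3.21 per 100 kb for KDM6A, 3.97 for PLPP1, 4.72 for MYO6, 5.06 for ST3GAL1, 5.17 for ZBTB16 and 10.2 for RASSF3. All 6 rates were thus above 3 per 100 kb, whereas 20.7% of 100 kb tiles of the genome held at least 3 such peaks and the mean tile held 1.41. Tiles also cover land between genes, and no hg19 annotation was used to restrict them to genes, so this background is not one of genes. The 47 other BMH-21 Pol II runs held 3.72 DMSO Pol I peaks per 100 kb, also above 3, against 6.38 in the 6 main runs. The median covered share of these 47 was 20.1%, against 85.6% for the 6. The 5 others nearest in covered length held 32 such peaks, 2 to 12 each over 88.6 to 123 kb. The 6 main runs held 37, 2 to 9 each over 73.3 to 122 kb. A raised rate is thus not shown to be particular to these genes. The threshold of 3 was chosen after these rates were seen.

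Most of these Pol I peaks were modest in score, with a median of 87.66 against 98.3 in the whole list. The strongest was at chr11:113911206-113912077, 18 kb before the start of ZBTB16, with a score of 513.77. The strongest within a gene were at chr8:134528890-134529615 in ST3GAL1 (361.63) and chr12:65018877-65020096 in RASSF3 (330.39). The widest, 1790 bp, lay at the start of MYO6 at chr6:76458398-76460187 with a score of 246.46.

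The share of all gene starts that hold a DMSO Pol I peak was not computed, so the peaks at these starts are given by position only. At KDM6A there were 3 (chrX:44732307-44732599, chrX:44732770-44733167 and chrX:44733860-44734311), with scores of 62.23, 95.78 and 89.97, under the first BMH-21 Pol II peaks of the run. At RASSF3, chr12:65002590-65003829 had a score of 214.44, and at ST3GAL1 the nearest, chr8:134582609-134582987, had 84.81. At PLPP1 the nearest was 8 kb and at ZBTB16 18 kb away. 

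DMSO Pol I peaks inside the runs all lay where Pol II was listed after BMH-21. All 37 such peaks met a BMH-21 Pol II peak over 1 bp or more, as did 90 of 105 (85.7%) in the other runs of at least 10 peaks, which were 50.8% covered. Over the whole windows it was 39 of 58 (67.2%), against 2.43% of all DMSO Pol I peaks. The genes were chosen for these runs, which had 83.0% of their length under peaks and 56 of their 375 gaps over 500 bp. Nothing is therefore read from these counts. Counted by bases, which does not favour wide peaks, 94.8% of the 20.3 kb of DMSO Pol I peaks in the runs was under BMH-21 Pol II peaks. By gene this was 100% in MYO6, whose run was 63.6% covered, 99.8% in KDM6A, 92.5% in PLPP1, 91.3% in RASSF3, 89.9% in ZBTB16 and 100% in ST3GAL1. In RASSF3 alone the base share was below the covered share of the run. These base shares rest on the same chosen runs and on few peaks, 2 in the case of ST3GAL1. No such share is given for other runs, so nothing is read from them either. The 21 peaks outside the main runs included 6 of RASSF3 and 6 of ST3GAL1 that lay before the run in the direction of transcription.

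DMSO Pol II peaks were few, 6 over the 6 windows and 0 within any main run. The 0 within the runs was largely set by the lists. No DMSO Pol II peak met a BMH-21 Pol II peak anywhere, and most of each run was under such peaks. That 0 therefore does not show that Pol II was missing from the runs in DMSO. At least 1 DMSO Pol II peak was found in 4 windows, PLPP1 and ZBTB16 had 0, and 65.5% of 100 kb tiles of the genome had 0. These window counts share the limit, as BMH-21 Pol II peaks lay on 42.7% of the windows. With 50 kb on each side, in place of 20 kb, ZBTB16 went from 0% to 2.37% of its window. Of the 6 peaks, 4 lay inside a gene, 3 in MYO6 and 1 in KDM6A, each downstream of the main run. Their place outside the runs has the same limit.

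Among all 54 BMH-21 Pol II runs of at least 10 peaks, 7 lay in the 6 windows, since MYO6 had 2. The 6 main runs had a median length of 96.9 kb and a median covered share of 85.6%, against 48.6 kb and 20.1% for the 47 others. The difference was part of the choice of genes. It was not particular to them, as 14 of the 47 others were at least as covered as the main run of MYO6, and 8 of these were also at least as long as that of RASSF3. By covered length, the others nearest to the median of the 6 (75.6 kb) were chr3:176721619-176810193 with 80.7 kb, chr14:30133304-30246048 with 82.8 kb, chr5:113715533-113811732 with 90.9 kb, chr14:30296283-30406954 with 95.1 kb and chr5:107541786-107664967 with 99.6 kb. All 5 skipped 0 numbers inside. They held 32 DMSO Pol I peaks, each of which met a BMH-21 Pol II peak, and the last of the 5 also held 3 DMSO Pol II peaks and 1 BMH-21 Pol I peak.

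**Figure D4:**
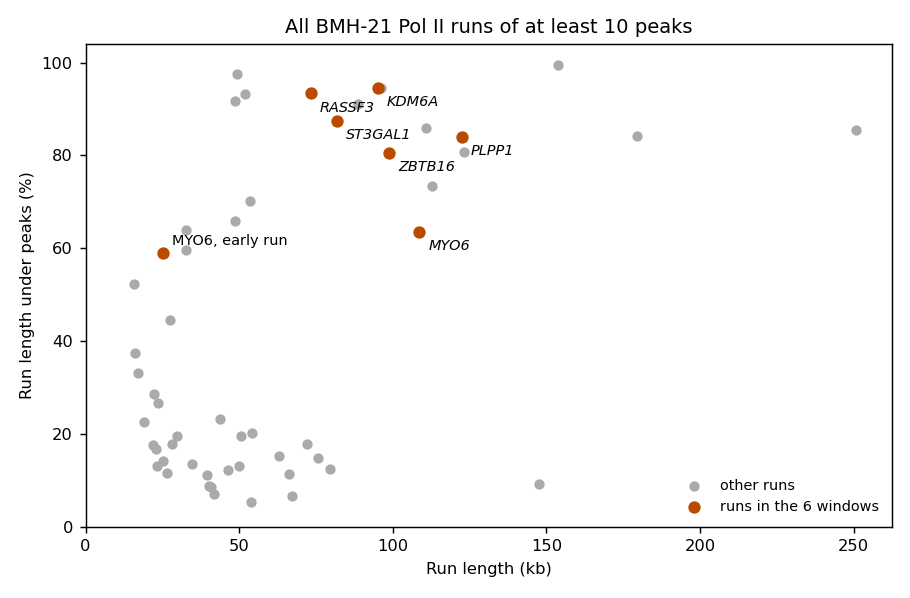
Length in kb and share of length under peaks for the 54 BMH-21 Pol II runs of at least 10 peaks, with the 7 runs in the 6 windows in colour and the 47 others in grey. The 6 main runs lie between 73.3 and 122 kb and between 63.6% and 94.4%, alongside several other long and closed runs and apart from a larger set of runs with little of their length under peaks.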

How the data were processed

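The authors' deposited files were 4 peak lists, 1 per ChIP library, each giving a position, a numbered name and a score for every peak. The column of the score is called a p-value in the file headers, but its values of 50 and more are those of a transformed one, so it was taken as the authors' score and compared within a list. Tools named in the submitters' processing notes are Bowtie2 2.2.1, CASAVA 1.8.2 and deepTools 3.5.4, with the build hg19. The peak names begin with MACS (version, settings, use of input, handling of duplicate reads and choice of peaks not given in the sources used here). The 2 inputs were not used.

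The series has 6 samples, grouped by title. Starts were converted to the first base as a browser shows it. Covered length is the union of peaks, an overlap is 1 bp or more, and a run joins gaps of up to 10 kb. Tiles of 100 kb ran from the first to the last listed peak of a chromosome. Functions for covered length and runs were tested on simulated data. With 1 library per group no test between treatments was made, and no interval is given. The genes, lists and tests were chosen with earlier results of these data known. The rule for names took all 6 genes and the 5 other runs nearest in covered length. Alternatives changed score, width, flank, gap and tile length. Promoters and neighbours come from RefSeq on GRCh38. Python 3.11.15, NumPy 2.4.6, pandas 2.3.3, SciPy 1.17.1 and matplotlib 3.10.9 were used.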

Additional observations from a re-analysis of the deposited data

How the results depend on the processing

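No paired analysis was possible because each group had 1 library, and no library could be left out. Of 58 alternative values for the windows together, the runs and the tiles, 36 stayed within 1.5 times the main count or length or within the binomial interval of the main share, which is very narrow over bases, and 22 did not. With scores at or above each list's median, 24 DMSO Pol I, 3 DMSO Pol II and 0 BMH-21 Pol I peaks were left, and the covered shares were 1.57%, 0.208% and 0%, with 41.9% for BMH-21 Pol II. With widths of at least 300 bp, the shares were 2.87% (DMSO Pol I), 42.2% (BMH-21 Pol II) and 0% (BMH-21 Pol I, 0 peaks). With 0 kb on each side they were 3.38% (DMSO Pol I), 0.199% (DMSO Pol II), 50.7% (BMH-21 Pol II) and 0.0216% (BMH-21 Pol I). With 50 kb they were 2.66%, 1.14% (21 DMSO Pol II peaks), 32.7% and 0.0131% in the same order. The DMSO Pol II values thus depend on the flank. With gaps up to 20 kb joined, the 2 MYO6 runs became 1 of 173 kb, and the other 5 run lengths stayed within 1.5 times under each setting. For single windows, 54 of 96 alternative shares left the binomial interval over bases. That interval treats neighbouring bases as independent, so it measures no error between libraries. Counts of shares inside or outside it are a description only. In 200 kb tiles, 0.0266% were at least 50% covered by BMH-21 Pol II. The BMH-21 Pol II share was the highest of the 4 lists under each setting of the windows together. The genes were chosen on these peaks, so that rank was set in advance and is no sign of stability. Unknown read depth, the lowest listed score and skipped numbers limit each absence. For DMSO Pol II, so does the lack of any overlap between the Pol II lists.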
